A study of Homo sapiens with 24 samples.

Results

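The genes described here are 10 regulators and markers of the epithelial to mesenchymal transition (EMT), the switch in which epithelial cells loosen their contacts and take on a motile form. They are the transcription factors SNAI1, SNAI2, ZEB1, ZEB2 and TWIST1, the marker genes VIM and CDH2, and the epithelial transcription factors GRHL2, OVOL1 and OVOL2. Members were the rows of the count table whose Ensembl identifier maps to 1 of these symbols. All 10 were found among the 60668 rows, and 9 of them were among the 22158 genes with enough counts to test. GRHL2 was listed at 0 counts in all 24 libraries, as were 24214 rows of the table, and it was not tested.

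The study measured poly(A) RNA of MCF-10A cells, an immortalised and non-tumorigenic human breast epithelial line, grown in 3 dimensions in Matrigel. One line was parental MCF-10A, and the other, MCF-10A MYC-ER, carries the transcription factor MYC joined to the hormone-binding domain of an oestrogen receptor, and 4-hydroxytamoxifen (4-OHT) switches this fusion on. Each line received 1 µM 4-OHT for 0, 8, 24 or 48 h, with treatment begun on day 3 or later so that every group was collected on day 5, and each of the 8 groups has 3 libraries. Parental cells given 4-OHT are the control for the drug itself. The promoter that drives the fusion, and whether the MYC-ER line is 1 clone or a pool, are not given in the sources used here. Replicates were wells in triplicate, and nothing says that they came from separate cultures, so the p-values measure only the spread between these samples, which may be technical.

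SNAI1, SNAI2, ZEB1, ZEB2 and TWIST1 are DNA-binding repressors or activators that bind E-box sequences, and the first 4 are known for repressing the E-cadherin gene CDH1. VIM encodes vimentin, an intermediate filament protein of mesenchymal and many cultured cells, and CDH2 encodes N-cadherin. GRHL2, OVOL1 and OVOL2 are known to hold the epithelial state, in part by repressing ZEB1, and the miR-200 family and miR-205 repress ZEB1 and ZEB2 through their 3′ UTRs.

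The ZEB genes and the microRNAs are shown first because only these members held repeated seed matches. The mature microRNAs are given from RefSeq (GRCh38.p14), 5′ to 3′, with the seed (bases 2 to 8) in capitals. They lie on the plus strand at chr12:6963742-6963764, chr12:6964155-6964176 and chr1:209432166-209432187.
hsa-miR-200c-3p: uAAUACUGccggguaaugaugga
hsa-miR-141-3p: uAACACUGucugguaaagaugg
hsa-miR-205-5p: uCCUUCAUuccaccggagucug

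The seed matches searched on the transcript strand were CAGTATT for miR-200c-3p, CAGTGTT for miR-141-3p and ATGAAGG for miR-205-5p. The ZEB1 3′ UTR (2549 bases) held 6, 3 and 1 of them, and the ZEB2 3′ UTR (5370 bases) held 5, 4 and 0. Of 2590 genes with a 3′ UTR of similar length to ZEB1, 26.4% held at least 1 match for miR-200c-3p. At least as many as in ZEB1 were held by 0.0386%. Of 1188 genes at the length of ZEB2 these shares were 46.5% and 0.168%. ZEB1 and ZEB2 were each counted in their own set, so the smaller share always includes the gene itself. SNAI2 held 1 match for miR-200c-3p and GRHL2 held 1 for miR-141-3p, and the UTRs of VIM, CDH2, TWIST1, SNAI1, OVOL1 and OVOL2 held none of the 3 matches. Sites of 24 bases are given with the match in capitals, named by gene, microRNA and the position of the match in the 3′ UTR (GENCODE annotation, GRCh38). A match is a description of the letters and not a measured site, and the microRNAs themselves were not measured.
ZEB1, miR-200c-3p, position 369: attgttttatcttatCAGTATTat
ZEB1, miR-141-3p, position 1533: tgagatttgatttaaCAGTGTTat
ZEB1, miR-205-5p, position 818: aatatgtggtaacatATGAAGGat
ZEB2, miR-200c-3p, position 392: cgcactaccatacatCAGTATTtt
ZEB2, miR-200c-3p, position 455: cgcactacaatgcatCAGTATTat
ZEB2, miR-141-3p, position 208: tgcaaaaattttgtaCAGTGTTaa

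Total counts per library ran from 136860029 to 182438505, and replicates of a group correlated across genes at Spearman 0.983 to 0.992. Mitochondrial genes held 3.86% to 9.71% of counts, and the parental 0 h libraries stood apart from each other more than those of any other group (3.86%, 7.28% and 7.03% mitochondrial). Total MYC counts, which include any reads of the fusion that map to MYC, are given as CPM (counts scaled to the library total and by trimmed mean of M values). They averaged 387, 795, 321 and 248 CPM in MYC-ER cells at 0, 8, 24 and 48 h. Parental cells averaged 532, 463, 506 and 525 CPM, while ESR1 stayed under 1 CPM in every group mean. The 8 basal epithelial markers were all detected at 1 CPM or more in every group. The summed fibroblast markers were 370 to 377 CPM in MYC-ER cells at 0 h and 77.3 to 133 CPM elsewhere, carried by COL1A1 and DCN, with 2 to 4 of 8 markers at 0 and COL1A2 listed at 0 in all MYC-ER libraries and at no more than 9 counts in any parental library.

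All levels, those above included, are CPM scaled by trimmed mean of M values. Changes are log2 fold changes ± standard error from edgeR's quasi-likelihood test with Benjamini-Hochberg adjustment over all 22158 genes, called at an adjusted p below 0.05. In these bulk samples fewer cells of a type and less RNA per cell cannot be told apart.

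In MYC-ER cells the EMT regulators did not move together. VIM, CDH2 and SNAI1 rose at all 3 times of 4-OHT, while SNAI2, ZEB2 and TWIST1 fell at all 3 times, and ZEB1 rose at 8 h alone. Of the 9 tested members 4 rose and 3 fell at 8 h, where 67.6% of all genes tested were called (32.2% higher and 35.4% lower). At 24 h 3 rose and 3 fell, where 61.6% were called (30.4% higher and 31.2% lower), and at 48 h 3 rose and 4 fell, where 44.1% were called (23.4% and 20.7%). These comparisons share the 0 h libraries. From 8 to 24 h 4 rose and 2 fell (28.4% and 27.1% of all genes, 55.5% in all), and from 24 to 48 h 2 rose and 5 fell (28.2% and 25.5%, 53.7% in all).

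**Figure D1:**
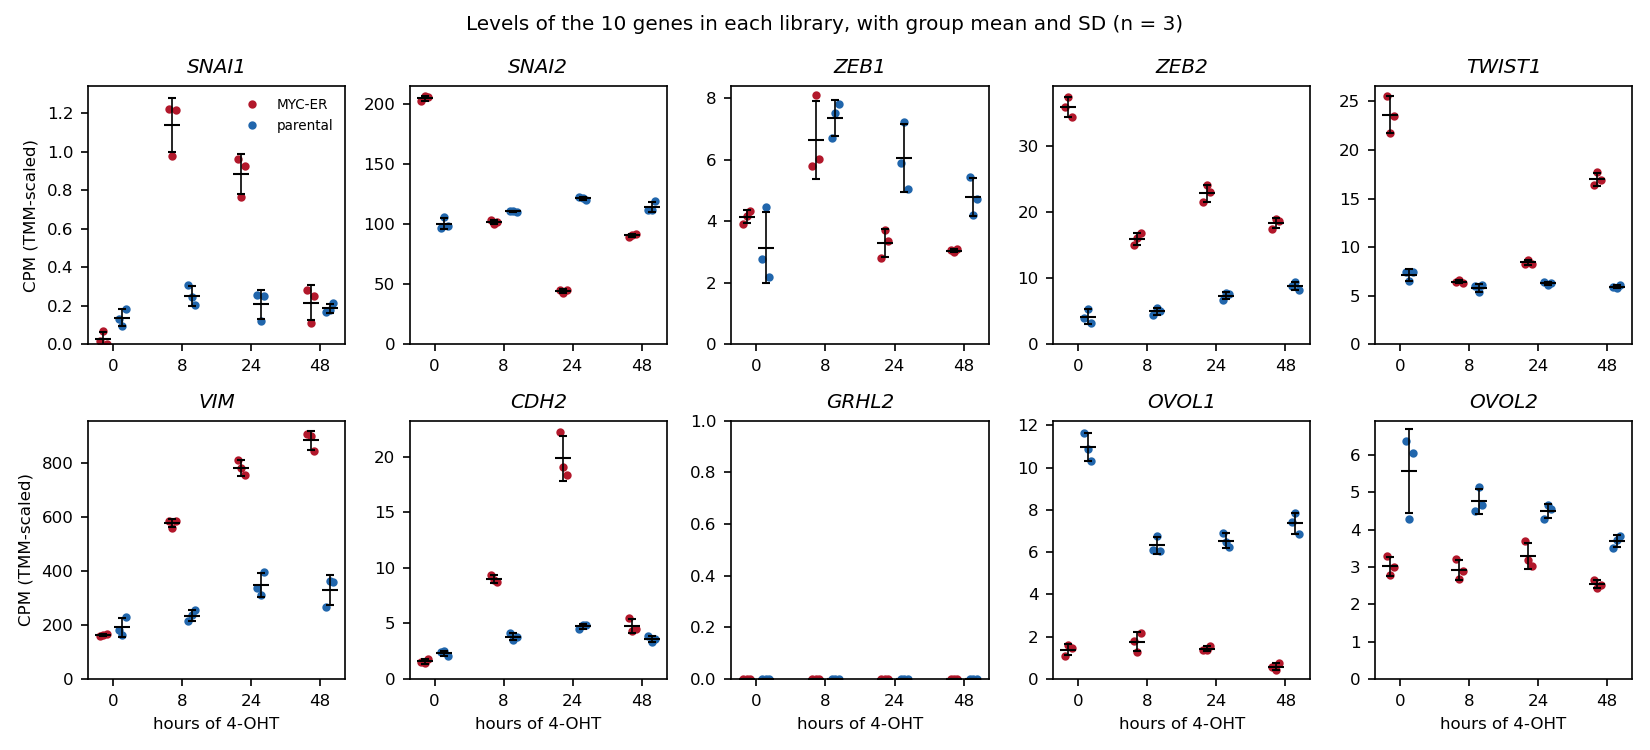
Level of each of the 10 genes in CPM (vertical axis, a separate scale per gene) against hours of 4-OHT, with 1 point per library (MYC-ER red, parental blue) and the group mean with its SD (n = 3) in black. In MYC-ER cells SNAI2, ZEB2 and TWIST1 are highest at 0 h, VIM is highest at 48 h and CDH2 at 24 h, and GRHL2 is at 0 throughout.

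VIM (ENSG00000026025.16, chr10:17228259-17237593, plus strand) rose at each time in MYC-ER cells. In MYC-ER cells it stood at 160, 165 and 168 CPM at 0 h, 586, 562 and 585 CPM at 8 h, 812, 780.3 and 755 CPM at 24 h, and 908, 901 and 845 CPM at 48 h. No library of one time overlapped with another time. The log2 change from 0 h was 1.82 ± 0.12 after 8 h of 4-OHT, with an adjusted p of 9.88e-12. After 24 h it was 2.25 (adjusted p = 3.98e-13), a 4.77-fold rise, and after 48 h 2.43 (adjusted p = 4.36e-13), a 5.39-fold rise. In parental cells VIM stood at 182, 162 and 231 CPM at 0 h, 214, 236 and 255 CPM at 8 h, 336, 311 and 398 CPM at 24 h and 267, 365 and 362 CPM at 48 h. Its parental rise was called at 24 h (0.86, adjusted p = 9.52e-06) and 48 h (0.79, adjusted p = 3.13e-05) and not at 8 h (0.29, adjusted p = 0.0599). The 8 h value became 0.46 with an adjusted p of 0.00370 without parental 0 h replicate 3, the highest of its group, and it was also called without parental 8 h replicate 1 or parental 48 h replicate 1 (adjusted p = 0.0317 and 0.0295). Scaling by library size alone, requiring 10 counts in every library and the replicate block also called it (adjusted p = 0.0146, 0.0371 and 0.0425). So did removing GC and length trends (0.38, adjusted p = 0.0110) and the DESeq2 Wald test (adjusted p = 0.0281).

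VIM shares 12.4% of its exon bases with the antisense RNA VIM-AS1 and 12% with AL133415.1. Whether counting used strand is not given in the sources used here, so reads of such pairs cannot be told apart. VIM-AS1 itself went from 0.705 CPM at 0 h to 2.38, 3.66 and 3.05 CPM in MYC-ER cells. VIM itself was at 164, 578, 782 and 884 CPM in those groups.

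CDH2 (ENSG00000170558.9, chr18:27950966-28177446, minus strand) rose and then fell back in MYC-ER cells. The libraries held 1.56, 1.41 and 1.78 CPM at 0 h, 9.40, 8.94 and 8.73 CPM at 8 h, 22.2, 19.1 and 18.3 CPM at 24 h, and 5.50, 4.37 and 4.50 CPM at 48 h. The 4 times did not overlap, and 24 h was the highest of all 8 groups. CDH2 was 12.6-fold higher at 24 h than at 0 h (log2 3.65, adjusted p = 7.17e-17), and it fell by 2.05 on the log2 scale from 24 to 48 h (adjusted p = 9.90e-13). In parental cells it stood at 2.43, 2.51 and 2.07 CPM at 0 h, 4.14, 3.52 and 3.75 CPM at 8 h, 4.52, 4.91 and 4.90 CPM at 24 h and 3.89, 3.37 and 3.59 CPM at 48 h. These were rises of 0.70, 1.03 and 0.63 on the log2 scale, each called, and they were smaller than in MYC-ER cells.

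SNAI1 (ENSG00000124216.4, chr20:49982999-49988886, plus strand), the Snail repressor, rested on few counts. In MYC-ER cells at 0 h its libraries held 3, 12 and 0 counts, or 0.0174, 0.0680 and 0 CPM. They held 1.22, 0.979 and 1.21 CPM at 8 h, 0.960, 0.764 and 0.923 CPM at 24 h and 0.283, 0.112 and 0.250 CPM at 48 h. All libraries at each later time lay above all those at 0 h, and those at 8 h lay above those at 24 h by a narrow margin. SNAI1 rose by 5.27 ± 0.56 on the log2 scale at 8 h (adjusted p = 2.61e-08). The rise was 4.91 (adjusted p = 8.86e-08) by 24 h and 2.88 (adjusted p = 0.000217) by 48 h, and from 24 to 48 h SNAI1 fell by 2.03 (adjusted p = 0.000615). Its size depends on 1 library: without MYC-ER 0 h replicate 2 the 3 rises were 6.91, 6.54 and 4.51. In parental cells the group means ran from 0.137 to 0.252 CPM with no change called.

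SNAI2 (ENSG00000019549.13, chr8:48917604-48921740, minus strand), the Slug repressor of basal breast cells, fell and partly returned in MYC-ER cells. In MYC-ER cells it stood at 203, 206 and 206 CPM at 0 h, 103, 99.8 and 102 CPM at 8 h, 45.5, 42.5 and 44.8 CPM at 24 h and 89.0, 90.8 and 92.0 CPM at 48 h. The libraries of a time lay close together and no 2 times overlapped. SNAI2 fell by 1.01 ± 0.04 on the log2 scale at 8 h (adjusted p = 2.39e-15) and by 2.21 at 24 h (adjusted p = 8.29e-21), and it rose again by 1.03 from 24 to 48 h (adjusted p = 7.76e-15). In parental cells it stood at 97.1, 106 and 98.3 CPM at 0 h and between 110.1 and 123 CPM in the libraries of later times. Its parental changes were small rises of 0.14, 0.28 and 0.18. That at 8 h had an adjusted p of 0.0721 without parental 0 h replicate 1 in place of 0.0128. With GC and length trends removed the rises at 8 and 48 h were 0.035 and 0.073 (adjusted p = 0.512 and 0.111). In fits of the compared groups alone these 2 rises had adjusted p-values of 0.229 and 0.163.

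TWIST1 (ENSG00000122691.13, chr7:19020991-19117672, minus strand), a basic helix-loop-helix factor, fell to its lowest MYC-ER level at 8 h and had partly returned by 48 h. In MYC-ER cells it stood at 25.6, 21.8 and 23.5 CPM at 0 h, 6.42, 6.59 and 6.26 CPM at 8 h, 8.28, 8.69 and 8.31 CPM at 24 h and 16.4, 17.7 and 17.0 CPM at 48 h. None of the 4 times overlapped. The fall was 1.88 ± 0.07 on the log2 scale at 8 h, a 3.68-fold drop (adjusted p = 1.39e-15), and TWIST1 rose by 1.01 from 24 to 48 h (adjusted p = 8.28e-11). At 48 h it was still lower than at 0 h, by 0.47 (adjusted p = 9.73e-06). In parental cells its libraries stood between 6.47 and 7.47 CPM at 0 h and between 5.34 and 6.37 CPM later, with log2 changes of -0.30, -0.19 and -0.27. These parental changes had adjusted p-values of 0.00354, 0.0426 and 0.00446, and without parental 0 h replicate 3 those at 24 and 48 h became 0.219 and 0.0522. The 24 h call was lost on leaving out any of 13 of the 24 libraries, each in turn. The summed endothelial markers also fell and partly returned in these MYC-ER libraries. At 0 h KDR was the only 1 of the 5 with a mean of 1 CPM or more, so the sum there describes 1 gene. At 8 h 2 of the 5 reached that level, so the markers did not all fall. Their range was 36.8 to 42.0 CPM before 4-OHT, 2.34 to 3.07 CPM after 8 h, 1.94 to 2.04 CPM after 24 h and 25.4 to 26.8 CPM after 48 h. In each group 1 of 5 of these markers was at 0, and their part in the SNAI2 and TWIST1 results was not tested. The paralogue TWIST2 rose in MYC-ER cells, from 8.44 CPM at 0 h to 30.0, 19.2 and 12.8 CPM (log2 changes of 1.83, 1.18 and 0.60, each called).

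ZEB2 (ENSG00000169554.21, chr2:144364364-144524583, minus strand) and ZEB1 (ENSG00000148516.21, chr10:31318495-31529814, plus strand) are paralogous zinc-finger repressors. In MYC-ER cells ZEB2 stood at 35.9, 37.3 and 34.4 CPM at 0 h, 14.9, 16.0 and 16.8 CPM at 8 h, 21.4, 24.0 and 23.0 CPM at 24 h and 17.4, 18.9 and 18.6 CPM at 48 h. The 0 h libraries were the highest and the times did not overlap. ZEB2 fell by 1.17 on the log2 scale at 8 h, with an adjusted p of 1.67e-08. Its falls of 0.65 by 24 h and 0.97 by 48 h had adjusted p-values of 6.01e-05 and 7.52e-07. In parental cells its libraries held 4.03, 5.35 and 3.15 CPM at 0 h, 4.46, 5.41 and 5.00 CPM at 8 h, 6.72, 7.70 and 7.61 CPM at 24 h and 8.87, 9.43 and 8.24 CPM at 48 h. Here ZEB2 rose by 0.81 by 24 h and by 1.08 by 48 h, with adjusted p-values of 2.91e-05 and 3.73e-06, so the direction was opposite in the 2 lines. The parental value at 8 h (0.25, adjusted p = 0.144) was called without parental 0 h replicate 2, the highest of its group (0.47, adjusted p = 0.000794).

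ZEB1 in MYC-ER cells stood at 3.91, 4.18 and 4.34 CPM at 0 h, 5.79, 8.09 and 6.01 CPM at 8 h, 2.81, 3.72 and 3.37 CPM at 24 h and 3.06, 2.99 and 3.08 CPM at 48 h. The 8 h libraries lay above the rest, and those of 24 and 48 h overlapped. ZEB1 rose by 0.68 ± 0.19 at 8 h (adjusted p = 0.00358). Its values at 24 h (-0.33, adjusted p = 0.146) and 48 h (-0.45, adjusted p = 0.0670) were not called. The 48 h value was called without parental 0 h replicate 2 or 3 (adjusted p = 0.0161 and 0.0396). It was also called in a fit of the 2 groups alone (-0.44, adjusted p = 0.00117) and with the replicate block (adjusted p = 0.0488). With GC and length trends removed and by the DESeq2 Wald test the adjusted p-values were 0.0487 and 0.0471. The parental libraries held 2.79, 4.45 and 2.20 CPM at 0 h, then 6.70, 7.52 and 7.82 CPM at 8 h, 5.88, 7.23 and 5.06 CPM at 24 h and 5.45, 4.20 and 4.71 CPM at 48 h. ZEB1 rose there by 1.23, 0.95 and 0.61 at the 3 times, with adjusted p-values of 8.87e-05, 0.000437 and 0.0147. The 48 h call rests on single libraries: leaving out parental 0 h replicate 1, parental 0 h replicate 3 or parental 48 h replicate 1 gave adjusted p-values of 0.0700, 0.0905 and 0.0725, and leaving out parental 0 h replicate 2 moved the value to 0.94.

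The host RNAs of the microRNAs, which are not the mature microRNAs, were higher in MYC-ER than in parental cells at 0 h, by 1.80 on the log2 scale for MIR200CHG (adjusted p = 2.29e-11) and 1.35 for MIR205HG (adjusted p = 7.89e-12). MIR200CHG, the host of miR-200c and miR-141, averaged 11.8, 4.97, 3.46 and 6.74 CPM in MYC-ER cells from 0 to 48 h and 3.41, 2.13, 1.55 and 2.14 CPM in parental cells. MIR205HG averaged 1580, 384, 554 and 1060 CPM in MYC-ER cells and 619, 452, 469 and 700.1 CPM in parental cells. In MYC-ER cells at 0 h, where MIR200CHG was highest, ZEB2 was at its highest group mean and ZEB1 was not. Whether the microRNAs acted on either gene in these cells was not tested.

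OVOL1 (ENSG00000172818.10, chr11:65787022-65797219, plus strand), a zinc-finger repressor of epithelial cells, was lower in MYC-ER than parental libraries throughout. MYC-ER libraries held 1.10, 1.60 and 1.47 CPM at 0 h, 1.82, 1.30 and 2.19 CPM at 8 h, 1.39, 1.37 and 1.56 CPM at 24 h and 0.559, 0.449 and 0.751 CPM at 48 h. Parental libraries held 11.7, 10.9 and 10.3 CPM at 0 h, 6.12, 6.76 and 6.07 CPM at 8 h, 6.92, 6.49 and 6.25 CPM at 24 h and 7.43, 7.83 and 6.84 CPM at 48 h. The lowest parental library lay above the highest MYC-ER library. In MYC-ER cells OVOL1 was not called at 8 h (0.35, adjusted p = 0.0743) or 24 h (0.05, adjusted p = 0.821), and it fell by 1.24 at 48 h (adjusted p = 5.66e-06). Without MYC-ER 8 h replicate 2 the 8 h value was 0.53 with an adjusted p of 0.00757, and without MYC-ER 0 h replicate 2 it was 0.46 with an adjusted p of 0.0383. In parental cells it fell by 0.79, 0.74 and 0.57, with adjusted p-values of 0.000894, 0.000788 and 0.00663. AP001266.1 overlaps 27.1% of the exon bases of OVOL1, so part of these counts could be assigned to either gene.

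OVOL2 (ENSG00000125850.11, chr20:17956979-18059188, minus strand), its paralogue, varied least of the detected members, by 2.19-fold between the highest and the lowest group mean. MYC-ER group means were 3.02, 2.93, 3.3 and 2.54 CPM from 0 to 48 h, with none of the 3 changes from 0 h called (adjusted p = 0.779, 0.384 and 0.117). Without parental 0 h replicate 2 the 48 h change was called (adjusted p = 0.0417). Parental libraries at 0 h held 6.38, 4.29 and 6.05 CPM, and the parental means then fell from 4.76 to 4.50 and 3.69 CPM at 8, 24 and 48 h. The fall of 0.59 at 48 h (adjusted p = 0.000602) kept its call without any 1 library and lost it once GC and length trends were removed (-0.25, adjusted p = 0.0847), while that of 0.31 at 24 h (adjusted p = 0.0477) was 0.20 (adjusted p = 0.258) without parental 0 h replicate 1 and lost its call on leaving out any of 21 of the 24 libraries. At 8 h the parental value (-0.23, adjusted p = 0.175) was called without parental 0 h replicate 2 (-0.39, adjusted p = 0.00585). GRHL2 (ENSG00000083307.12, chr8:101492432-101669726, plus strand) was listed at 0 counts in every library. Epithelial lines are known to express GRHL2, so a value of 0 is unexpected here and is not read as its level; why this row is at 0 was not tested. Its relatives GRHL1 and GRHL3 were detected: GRHL1 averaged 1.00, 6.34, 2.16 and 1.56 CPM in MYC-ER cells, and GRHL3 went from 1.55 CPM at 0 h to 13.5, 14.3 and 6.01 CPM, each rise being called.

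**Figure D2:**
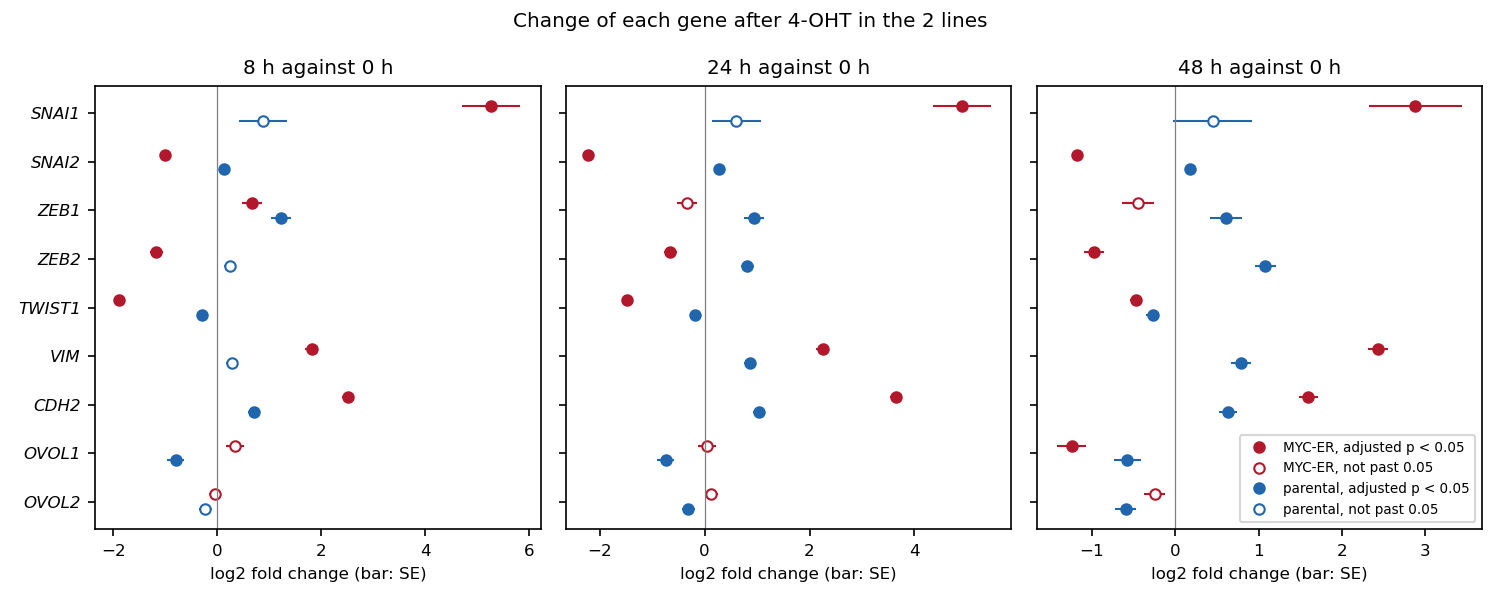
Log2 fold change from 0 h (horizontal axis, a separate scale per panel, bars are SE) of the 9 tested genes after 8, 24 and 48 h of 4-OHT in MYC-ER (red) and parental (blue) cells; filled points have an adjusted p below 0.05. SNAI2 and ZEB2 lie left of 0 in MYC-ER cells at all 3 times and right of 0 in parental cells.

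Parental cells show what 4-OHT and the time course moved without the fusion. Of the 9 tested members 3 rose and 2 fell at 8 h, where 31.0% of all genes were called (15.0% higher and 16.0% lower). At 24 h 5 rose and 3 fell (42.9% of all genes were called, 21.2% higher and 21.7% lower), and at 48 h again 5 rose and 3 fell (40.5% called, 20.4% higher and 20.1% lower). CDH2, ZEB1 and SNAI2 rose and TWIST1 and OVOL1 fell at all 3 times. Parental changes were correlated with base composition and length across genes: Spearman's coefficient of the 48 h change was -0.44 with GC content and 0.29 with length over 21724 genes, which are not independent replicates. With those trends removed 3 members were called at 48 h in place of 8, and the TWIST1 value turned from -0.27 to 0.06. In a fit of the parental 0 and 48 h libraries alone 5 members were called.

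The plot of changes sets the lines side by side, and the interaction term tested the difference between their responses. At 8 h 4 of 9 members responded higher and 3 lower in MYC-ER cells (27.3% and 27.8% of all genes, 55.2% in all). At 24 h 5 were higher and 4 lower (27.7% and 26.8%, 54.5% in all), and at 48 h 3 and 4 (23.6% and 21.4%, 45.0% in all). The response of MYC-ER cells exceeded that of parental cells by 1.52, 1.39 and 1.64 on the log2 scale for VIM and by 1.81, 2.62 and 0.97 for CDH2 at 8, 24 and 48 h. For ZEB2 it lay below by 1.42, 1.47 and 2.06, and for SNAI2 by 1.15, 2.49 and 1.36. TWIST1 differed at 8 h (-1.58) and 24 h (-1.30) and was not called at 48 h (-0.20, adjusted p = 0.110), and ZEB1 was called at 24 h (-1.27) and 48 h (-1.05) and not at 8 h (-0.55, adjusted p = 0.0930). The ZEB1 difference at 8 h was -0.88 with an adjusted p of 0.00173 without parental 0 h replicate 2, and -0.71 with an adjusted p of 0.0355 without MYC-ER 8 h replicate 2. The TWIST1 difference at 48 h had an adjusted p of 0.0472 without parental 0 h replicate 3, and with GC and length trends removed it was -0.70 (adjusted p = 2.53e-06). The OVOL2 difference at 24 h was 0.44 (adjusted p = 0.0389) and with those trends removed 0.02 (adjusted p = 0.934).

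Before any 4-OHT 3 of 9 members were higher in MYC-ER cells and 4 were higher in parental cells, where 64.3% of all genes were called (31.6% higher and 32.7% lower). ZEB2 was higher in MYC-ER cells by 3.10 ± 0.13 on the log2 scale (adjusted p = 6.06e-15), TWIST1 by 1.73 (adjusted p = 6.70e-15) and SNAI2 by 1.03 (adjusted p = 2.31e-15). OVOL1 was lower by 2.98 ± 0.18 (adjusted p = 2.04e-12), SNAI1 by 2.22 (adjusted p = 0.00178), OVOL2 by 0.88 (adjusted p = 2.00e-06) and CDH2 by 0.56 (adjusted p = 0.000151). The SNAI1 difference rests on the 3, 12 and 0 counts of MYC-ER cells: it was -3.86 without MYC-ER 0 h replicate 2 and had an adjusted p of 0.0554 in a fit of these 2 groups alone. VIM (-0.22, adjusted p = 0.0973) and ZEB1 (0.40, adjusted p = 0.0756) were not called, although both were without parental 0 h replicate 2, at adjusted p-values of 0.0164 and 0.000654. The summed fibroblast markers were higher in the same MYC-ER 0 h libraries, with COL1A1 at 215 and DCN at 157 CPM against 93.9 and 30.7 CPM in parental cells, and the endothelial gene KDR stood at 39.1 against 1.25 CPM. COL1A2 and THY1 were listed at 0 in both groups, as was the endothelial gene CDH5. The part of these markers in the result was not tested.

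With 4-OHT, 4 members were higher and 3 lower in MYC-ER cells at 8 h (23.1% and 25.5% of all genes, 48.6% in all). At 24 h 5 were higher and 4 lower (23.5% and 25.8%, 49.4% in all), and at 48 h 4 and 4 (27.3% and 29.4%, 56.7% in all). SNAI1 was higher in MYC-ER cells at 8 h (2.17) and 24 h (2.08) and was not called at 48 h (0.21, adjusted p = 0.731). VIM was higher by 1.30, 1.17 and 1.42 at 8, 24 and 48 h, and CDH2 by 1.25, 2.06 and 0.41. SNAI2 was lower by 1.46 at 24 h and by 0.33 at 48 h, and its 8 h difference of -0.12 (adjusted p = 0.0175) had adjusted p-values of 0.0750 and 0.0979 without MYC-ER 8 h replicate 2 or parental 8 h replicate 1. ZEB2 stayed higher at 8, 24 and 48 h (1.68, 1.64 and 1.05) and OVOL1 lower (-1.84, -2.19 and -3.65). TWIST1 was not called at 8 h (0.15, adjusted p = 0.0978) and was higher by 1.53 at 48 h (adjusted p = 1.58e-13). Its 8 h difference was called once GC and length trends were removed (0.33, adjusted p = 0.000248), with DESeq2 size factors (0.18, adjusted p = 0.0458) and by the DESeq2 Wald test (0.18, adjusted p = 0.0408).

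**Figure D3:**
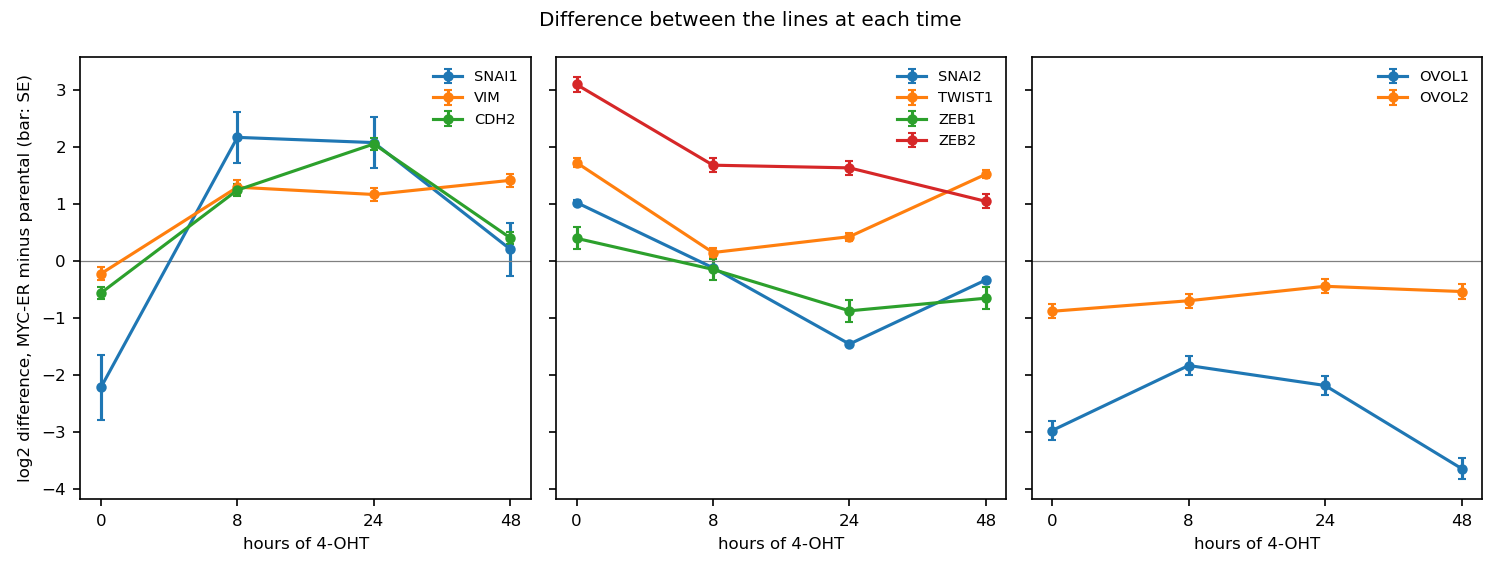
Log2 difference between MYC-ER and parental cells (vertical axis, bars are SE) at 0, 8, 24 and 48 h of 4-OHT for the 9 tested genes in 3 panels. SNAI1, VIM and CDH2 lie below 0 at 0 h and above 0 at 8 and 24 h, SNAI2 goes from above to below 0, and both OVOL genes stay below 0.

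The order of the 8 groups differed between the genes of each family. SNAI2 was highest in MYC-ER 0 h and lowest in MYC-ER 24 h libraries, while SNAI1 was lowest in MYC-ER 0 h and highest in MYC-ER 8 h libraries. For SNAI1 the parental 8 h, MYC-ER 48 h, parental 24 h, parental 48 h and parental 0 h groups overlapped from one to the next. ZEB2 had all 4 MYC-ER groups above all 4 parental groups in the order 0, 24, 48 and 8 h, and only the parental 8 and 0 h groups overlapped. ZEB1 groups overlapped with their neighbours in that order except between MYC-ER 0 h and MYC-ER 24 h. VIM ran from MYC-ER 48 h through 24 h and 8 h, with no overlap, down to the overlapping parental 8 h, parental 0 h and MYC-ER 0 h groups. OVOL1 had all parental groups above all MYC-ER groups, and OVOL2 was highest in parental 0 h and lowest in MYC-ER 48 h libraries.

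Levels were compared between genes per kilobase of the longest annotated transcript. In MYC-ER cells at 0 h SNAI2 (72.4 CPM per kb) and VIM (61.6) led, followed by TWIST1 (14.2), ZEB2 (3.74), OVOL2 (1.94), ZEB1 (0.661), OVOL1 (0.458), CDH2 (0.365) and SNAI1 (0.0169). At 24 h VIM stood at 294 CPM per kb and SNAI2 at 15.7. On this scale the ratio of ZEB2 to ZEB1 in MYC-ER cells was 5.67 at 0 h (libraries from 5.18 to 6.0), then 1.60, 4.56 and 3.93, and in parental cells it was 0.890, 0.441, 0.809 and 1.23. Which ZEB gene was higher depended on the length used. Per kilobase of all merged exons ZEB1 stood above ZEB2 in MYC-ER cells at 8 h (0.767 against 0.635 CPM per kb) and in parental cells at 48 h (0.553 against 0.353), where the longest transcript gave the opposite order.

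The cadherin ratio, E-cadherin CDH1 over N-cadherin CDH2 per length, was 79.1 in MYC-ER cells at 0 h (libraries from 69.0 to 90.2). It was 18.4 at 8 h, 5.07 at 24 h (libraries from 4.74 to 5.41) and 32.0 at 48 h. CDH1 stayed above CDH2 per length in every group. Its own level was 140, 187, 113 and 172 CPM in MYC-ER cells over the time course. CDH1 rose by 0.42 at 8 h (adjusted p = 3.36e-06), fell by 0.31 at 24 h (adjusted p = 0.000178) and was 0.30 above 0 h at 48 h (adjusted p = 0.000443). In parental cells CDH1 rose by 0.34, 0.44 and 0.23 at 8, 24 and 48 h, each called. Its interaction term was called at 24 h (-0.745, adjusted p = 2.21e-07). That term was not called at 8 h (0.08, adjusted p = 0.472) or 48 h (0.07, adjusted p = 0.587). Parental libraries held ratios from 37.3 to 63.2 over all 4 times. The ratio of P-cadherin CDH3 to CDH2 fell from 245 to 36.4 and 15.1 and stood at 62.0 at 48 h in MYC-ER cells, and that of basal keratin KRT5 to VIM went from 80.4 to 18.2, 9.56 and 8.25. OVOL2 to OVOL1 was 4.40, 3.36, 4.51 and 8.82 in MYC-ER cells and between 0.982 and 1.47 in parental cells.

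**Figure D4:**
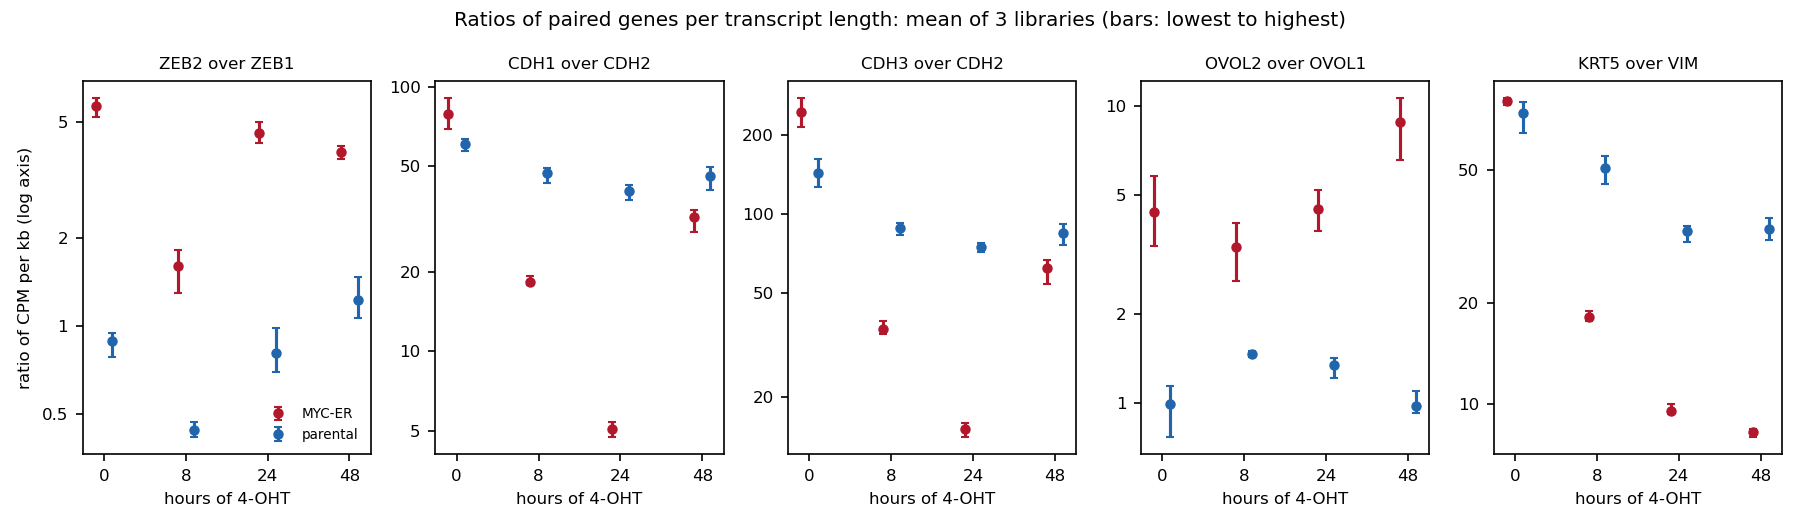
Ratio of 2 genes' CPM per kilobase of transcript (vertical axis, log scale, a separate one per panel) against hours of 4-OHT; points are the means of 3 libraries and bars run from the lowest to the highest library (MYC-ER red, parental blue). CDH1 over CDH2 in MYC-ER cells drops from 79.1 at 0 h to 5.07 at 24 h and stands at 32.0 at 48 h.

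Other EMT genes were taken from lists of known factors and targets. Of 19 other EMT transcription factors tested, 11 rose and 4 fell in MYC-ER cells at 8 h, where 32.2% of all genes rose and 35.4% fell, with a median log2 change of 1.07 beside -0.10 over all genes. At 24 h 10 rose and 5 fell (30.4% and 31.2% of all genes), with a median of 0.46 beside -0.02. The list median was 0.29 with genes at 0 counts in a group at their bound, which assumes a floor of 3 counts per library. At 48 h 7 rose and 5 fell (23.4% and 20.7% of all genes; median 0.11 beside 0.03). HMGA2, a chromatin factor, went from 13.7 to 163 CPM at 8 h (log2 3.57, adjusted p = 9.23e-19) and FOXC2 from 7.02 to 37.2 CPM (2.41). FOXQ1, a forkhead factor, went from 42.2 to 2.88 CPM (-3.87, adjusted p = 9.07e-18). Parental cells had 7 higher and 2 lower at 8 h (15.0% and 16.0% of all genes), 11 and 3 at 24 h (21.2% and 21.7%), and 10 and 4 at 48 h (20.4% and 20.1%), with ETS1 going from 18.1 to 45.8 CPM by 48 h.

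Of 27 tested epithelial genes that EMT factors are known to repress, 12 rose and 9 fell in MYC-ER cells at 8 h, 12 rose and 10 fell at 24 h, and 15 rose and 4 fell at 48 h, against 32.2% and 35.4%, 30.4% and 31.2%, and 23.4% and 20.7% of all genes. Their median changes were 0.05, 0.13 and 0.36, beside all-gene medians of -0.10, -0.02 and 0.03. EPCAM, an epithelial adhesion protein, went from 1.93 CPM to 23.8 at 8 h, 75.8 at 24 h (log2 5.29, adjusted p = 1.07e-21) and 38.9 at 48 h. KRT18, a luminal keratin, went from 97.0 to 503 CPM at 8 h (2.37), while the tight junction gene TJP3 went from 2.60 to 0.477 CPM (-2.44). In parental cells 4 rose and 14 fell at 48 h (20.4% and 20.1% of all genes), with a median of -0.27 beside -0.0016 over all genes. The interaction at 48 h had 18 higher and 4 lower in MYC-ER cells (23.6% and 21.4% of all genes), with a median of 0.70 beside 0.07. Across genes Spearman's coefficient with GC content was -0.44 for the parental 48 h change and 0.29 for the 48 h interaction. With length it was 0.29 and -0.24. The listed genes were not examined with these trends removed, so their part in the list counts and medians was not tested.

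Of 25 tested mesenchymal genes, 8 rose and 13 fell in MYC-ER cells at 8 h, 11 rose and 9 fell at 24 h, and 16 rose and 8 fell at 48 h, with medians of -0.53, 0.23 and 0.69 beside -0.10, -0.02 and 0.03 over all genes. Of all genes 67.6%, 61.6% and 44.1% were called at these times, 32.2%, 30.4% and 23.4% being higher. LOXL2, a collagen cross-linking enzyme, went from 2.05 to 57.4 CPM at 8 h (log2 4.81). COL6A3, listed at 0 counts in MYC-ER cells at 0 h, stood at 6.82 CPM at 8 h. That is a bound of 394-fold if the 0 is set to an assumed floor of 3 counts per library. FN1, fibronectin, stood at 0.331 CPM at 0 h and 3.42 CPM at 48 h in MYC-ER cells (3.37), and at 40.1 CPM in parental cells at 0 h. Parental cells had 7 higher and 5 lower at 8 h (15.0% and 16.0% of all genes) and 9 and 6 at 24 h (21.2% and 21.7%). At 48 h 11 were higher and 3 lower (20.4% and 20.1% of all genes), with a median of 0.33 beside -0.0016 over all genes. The fall of COL1A1 in MYC-ER cells, from 215 to 55.5 CPM at 8 h, is part of both this list and the fibroblast markers.

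**Figure D5:**
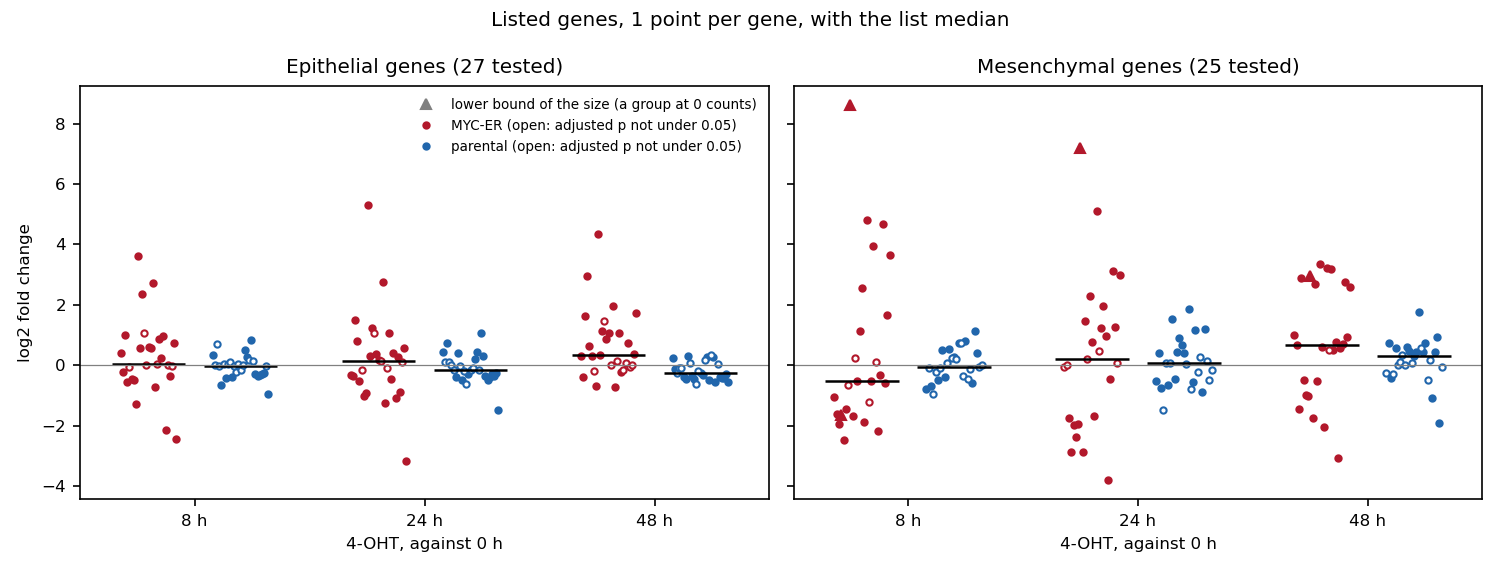
Log2 fold change from 0 h (vertical axis) of each listed epithelial gene (27 tested) and mesenchymal gene (25 tested) at 8, 24 and 48 h of 4-OHT, 1 point per gene, with a black line at the list median. MYC-ER is red, parental blue, and open points have an adjusted p not below 0.05. Triangles are lower bounds where a group is at 0 counts, with the 0 set to an assumed floor of 3 counts per library. Both lists spread to both sides of 0 at every time, and in MYC-ER cells both medians lie above 0 at 48 h.

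The other epithelial regulators tested (16 genes) had 6 higher and 8 lower at 8 h, 7 and 8 at 24 h, and 8 and 4 at 48 h in MYC-ER cells. Of all genes 30.4% rose and 31.2% fell at 24 h, and 23.4% rose and 20.7% fell at 48 h. Over all genes 32.2% rose and 35.4% fell at 8 h with a median of -0.10, which is the background for each list count at 8 h that follows. EHF and ELF3, ETS-family epithelial factors, went from 24.1 to 1.18 CPM (-4.35) and from 5.98 to 0.301 CPM (-4.31) at 8 h, and FOXA1 from 0.278 to 2.84 CPM (3.35). Of 21 genes of the TGF-beta pathway, a known inducer of EMT, 9 rose and 8 fell at 8 h, with a median of -0.0013. TGFB1, a ligand, went from 33.7 to 145 CPM (2.1), and TGFBR3, a co-receptor, from 141 to 8.31 CPM (-4.08). Of 16 corepressors that SNAI and ZEB proteins recruit, 9 rose and 2 fell at 8 h (median 0.24), among them KDM1A, a histone demethylase, from 109 to 221 CPM (1.02). Of 16 genes that control the stability of these proteins 8 rose and 8 fell at 8 h. The 3 tested inhibitors of E proteins, the partners of TWIST1, differed at 8 h. ID1 went from 80.7 to 246 CPM (1.61), ID2 fell from 36.6 to 23.3 CPM (-0.65), and ID3 was not called (0.05, adjusted p = 0.632). ID1 was below its 0 h level at 24 h (-0.265) and 48 h (-0.43), both called.

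The genes whose log2 CPM followed each member most closely over the 24 libraries, which fall into 8 groups, were taken among 13132 genes by Pearson's r, as a description. They were DNAJB9 for SNAI2 (r = 0.975), CILK1 for ZEB2 (0.98), TMEM42 for TWIST1 (0.98), CA9 for VIM (0.958), PPFIA4 for CDH2 (0.969), SLC4A11 for OVOL1 (0.982) and LMF2 for OVOL2 (0.973). ZEB1 had the lowest best value, 0.91 with SLC30A7. None of the 10 members was among the 3 genes closest to any member. SNAI1, with a mean under 1 CPM, was not compared.

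A pair of start-site windows are shown because E-boxes of the kind that SNAI and ZEB factors bind were searched for there. Windows of 250 bases before an annotated start (RefSeq, GRCh38.p14) are reported for 4 of the 10 members, ZEB1, ZEB2, VIM and CDH2. No window is reported for the other members, SNAI2 and GRHL2 among them. Their absence does not say that they lack an annotated start or a match. The motif was CACCTG on either strand, printed as its reverse complement CAGGTG where it lies so. Of 35116 such windows over all genes 17.5% held a match. Of 7 ZEB1 windows 5 held no match, the first held 1 and the third held 2, and the ZEB2 window and both CDH2 windows held none. The first ZEB1 window, chr10:31318167-31318416 on the plus strand, held 1 match, in capitals, and the VIM window, chr10:17227991-17228240 on the plus strand, held none, which says only that these letters are not in this window.
ZEB1: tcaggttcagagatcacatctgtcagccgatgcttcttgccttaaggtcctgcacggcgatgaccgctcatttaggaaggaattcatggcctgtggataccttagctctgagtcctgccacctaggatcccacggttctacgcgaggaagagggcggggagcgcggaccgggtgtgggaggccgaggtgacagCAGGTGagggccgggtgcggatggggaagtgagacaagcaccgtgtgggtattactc
VIM: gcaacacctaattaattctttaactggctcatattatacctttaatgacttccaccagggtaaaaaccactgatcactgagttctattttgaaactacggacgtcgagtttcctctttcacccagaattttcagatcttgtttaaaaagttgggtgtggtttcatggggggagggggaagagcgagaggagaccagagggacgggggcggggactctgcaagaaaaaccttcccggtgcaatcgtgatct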

How the data were processed

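The measurements were RNA-seq libraries of poly(A) RNA, 3 in each of 8 groups of line and time. The authors deposited 1 table of whole-number counts per gene, not normalized; Trimmomatic 0.39, STAR, StringTie 2.1.3b and GRCh38 are named in the submitters' processing notes. The annotation release, the strand setting and the treatment of multi-mapping reads are not given in the sources used here. The layout resembles that of StringTie's prepDE, whose counts are derived from coverage, so a count may not be 1 read; this step is not given in the sources used here either. Rows were named through the GENCODE annotation.

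Low genes were removed with filterByExpr. The model, in edgeR 4.0.16 under R 4.3.3, used TMM scaling and a mean for each of the 8 groups. Fold changes came from 15 two-sided quasi-likelihood tests, adjusted by Benjamini-Hochberg within each over 22158 genes. Standard errors are the log2 change divided by the root of F. The fit was tested on simulated data. Members are all named; beside them the text names at most 4 genes per list and comparison by size of change among those called, reference genes such as CDH1, paralogues and the host RNAs, and the most similar genes. COL1A1, DCN and KDR were named after their values were seen. The 10 members and the lists were chosen with earlier results of these data known. Alternatives were DESeq2 1.42.0 and its size factors, other scalings and filters, the replicate block, the compared groups alone, GC and length trends removed, and each library left out. One listed gene is not reported here.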

Additional observations from a re-analysis of the deposited data

Results flagged for a closer look

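For 23 values the response to 4-OHT differed between MYC-ER and parental cells by the interaction term (MYC-ER minus parental, log2). At 8 h these were SNAI1 4.39, SNAI2 -1.15, ZEB2 -1.42, TWIST1 -1.58, VIM 1.52, CDH2 1.81 and OVOL1 1.14, with adjusted p-values from 2.90e-13 to 0.000249. At 24 h they were SNAI1 4.30, SNAI2 -2.49, ZEB1 -1.27, ZEB2 -1.47, TWIST1 -1.30, VIM 1.39, CDH2 2.62, OVOL1 0.79 (adjusted p = 0.00656) and OVOL2 0.44 (adjusted p = 0.0389). At 48 h they were SNAI1 2.43 (adjusted p = 0.0101), SNAI2 -1.36, ZEB1 -1.05, ZEB2 -2.06, VIM 1.64, CDH2 0.97 and OVOL1 -0.67 (adjusted p = 0.0265). The SNAI1 values were 6.03, 5.93 and 4.06 without MYC-ER 0 h replicate 2. The OVOL2 value at 24 h lost its call on leaving out any of 8 libraries, with adjusted p-values of up to 0.13, the highest being without parental 0 h replicate 1, and it was 0.02 (adjusted p = 0.934) with GC and length trends removed. The OVOL1 value at 48 h lost its call on leaving out MYC-ER 0 h replicate 2 or 3, MYC-ER 48 h replicate 1 or 2, or parental 48 h replicate 2, with adjusted p-values from 0.0562 to 0.0932.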

How the results depend on the processing

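Over 9 alternatives other than leaving out a library, 1139 values kept their direction and side of the threshold, 32 lost and 22 gained a call, and 7 turned. The count of members called in parental cells was 3 in place of 5 at 8 h with only the groups compared, and 5 with only the groups compared and 3 with GC and length trends removed in place of 8 at 48 h. With GC and length trends removed, the log2 value turned for OVOL2 in MYC-ER cells at 8 h (0.026), in parental cells at 8 h (0.0047) and 24 h (0.063) and in the 48 h interaction (-0.17), for ZEB2 in parental cells at 8 h (-0.025, uncalled before), and for TWIST1 in parental cells at 24 h (0.17) and 48 h (0.062). The cause was not tested. Leaving out 1 library at a time kept 3157 values, lost 60 calls and gained 18. Members called then ranged from 4 to 7 of 9 in parental cells at 8 h and from 7 to 9 in MYC-ER cells at 48 h. Values that were not called and turned were OVOL2 in MYC-ER cells at 8 h (-0.113 to 0.024), OVOL1 in MYC-ER cells at 24 h (-0.093 to 0.163) and the SNAI1 line difference at 48 h (-0.039 to 0.507). Scaling by library size alone shifted the median change of all genes in MYC-ER cells by 0.11 at 24 h and 0.16 at 48 h, and the share of higher calls at 48 h from 53.0% to 73.8%. Replicate numbers did not pair the samples (correlations from -0.0336 to 0.0519). A fit with the replicate block kept 131 values, lost OVOL2 in parental cells at 24 h (adjusted p = 0.0523) and gained 3. Those gained were ZEB1 in MYC-ER cells at 48 h (adjusted p = 0.0488), VIM in parental cells at 8 h (0.0425) and the ZEB1 line difference at 0 h (0.0412). Depth limits SNAI1 in MYC-ER cells at 0 h, at 0 to 12 counts.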
